A study of Mus musculus with 3 samples.

Results

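The genes described here are the histone modifiers and chromatin remodelers on a mouse expression array: the enzymes that remove histone marks (erasers), the enzymes and complexes that set them (writers), the proteins that bind them (readers), and the motors that move nucleosomes (remodelers). They were chosen by gene name alone, from name families such as Hdac, Sirt, Jmjd, Jarid, Aof, Mll, Setd, Suv, Prmt, Cbx, Brd, Chd and Smarc, with no measured value in the rule, although the families were picked with earlier results of these data known. The rule found 118 genes with 257 probes, among 27962 named genes with 41174 probes. By textbook role, 34 are erasers, 36 writers, 18 readers and 23 remodelers. The other 7 are Mllt genes, known as fusion partners of Mll in leukaemia. They are counted in none of these roles, although some encode proteins that read acetylated histones.

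The RNA came from mouse embryos pooled at the four-cell stage. In the HP group the oocytes had been put under high hydrostatic pressure, 20 MPa for 60 min at 37 °C, and in the control group the oocytes had been handled alike but without pressure. Per the sample labels both groups were fertilized by ICSI (sperm injection), while the title of the series speaks of in vitro fertilization. Replicates 1, 2 and 3 paired HP pools of 44, 30 and 37 embryos with control pools of 36, 33 and 24. Strain, genotype and the age of the females are not given in the sources used here. Each replicate was 1 two-colour Agilent array, with the HP pool in the Cy5 channel and the control pool of that number in the Cy3 channel, so the effect of the dye and the effect of pressure cannot be told apart. Whether the pools came from separate females or days is not given, so a p-value reflects only how far these pools differ among themselves, which may be technical.

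In the cells of an embryo DNA is wound on histones, and chemical groups on the histone tails mark regions as active or silent. Acetyl and methyl groups are put on by acetyltransferases and methyltransferases, bound by bromodomain, chromodomain and PHD finger proteins, and taken off by deacetylases, sirtuins and demethylases. The mouse oocyte carries a large store of maternal RNA for such proteins. By the four-cell stage much of that store has given way to transcripts of the embryo's own genome. Over these first divisions the marks inherited from egg and sperm are rewritten. A level measured in a pool is a sum over cells and embryos: fewer embryos that express a gene and less RNA in each embryo cannot be told apart.

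The arrays had no saturated spot, and between 17.5% and 23.2% of non-control spots were well above background in a channel. The precision is limited by there being 3 arrays. HP pools 2 and 3 were the most alike of all pairs: the SD of their difference over all tested genes was 0.23 on the log2 scale, against 0.46 and 0.55 for the other HP pairs and 0.47 to 0.52 for the control pairs. Replicates 2 and 3 are therefore also given below as 1 replicate. Oocyte or embryo origin was checked with 8 oocyte and cleavage-stage markers, a joint list that does not check the four-cell stage itself. Of the 6 on the array, Dppa3, Gdf9 and Oog1 were well above background in all pools and Bmp15 in all HP pools and 2 control pools, while Pou5f1 was so in 1 control pool and Zar1 in none. The summed signal of these markers was 18718 to 33795 in the HP pools and 12462 to 15636 in the control pools, with log2 ratios of 1.49 for Oog1 and 0.97 for Gdf9. Its part in the results below was not tested. Cumulus cell markers gave 0 of 9 genes detected in all pools of either group (summed signal 1074 to 1097 in HP and 1089 to 1112 in control). Among them, Cyp11a1 was detected in 1 control pool and Ptx3 in 1 HP and 1 control pool. Of 6 sperm genes, Prm1 was detected in 2 HP and 3 control pools and Prm2 in 1 control pool. Of 4 blood genes, Hba-a1 was detected in 3 HP pools and 1 control pool.

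The value of a gene is the log2 ratio of HP over control within an array, above 0 where the HP pool was brighter, from its brightest probe. Only probes detected (well above background) in 1 channel on 2 or more of the 3 arrays entered the test. Of the 118 chromatin genes, 71 met this: 13 erasers, 24 writers, 14 readers, 14 remodelers and 6 Mllt genes. The other 47 had no testable probe, and 33 of these were not well above background on any array in either channel. Per array, 59 to 63 of the 118 genes were well above background in the HP pool and 64 to 72 in the control pool. Whole families were dim: 8 of 11 numbered histone deacetylases were not tested, Hdac2, Hdac3 and Hdac8 of class I among them, as were the methyltransferases Ezh1, Setdb1, Suv39h1 and Suv39h2 and the remodeler subunit Smarcd1. A dim probe gives only an upper limit on the level, not its absence.

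No chromatin gene passed the test, limma over all genes with Benjamini-Hochberg adjustment and a threshold of 0.05. In the same fit 0 of 7257 genes passed (0%), with a lowest adjusted p of 0.178. An unadjusted p under 0.05 in limma was found for 13 of the 71 genes, or 18.3%, beside 18.5% of all tested genes. Of those 13, 6 were higher in HP (7.36% of all genes were) and 7 were lower (11.1% of all genes were). The ratio was above 0 on all 3 arrays for 13 chromatin genes (18.3%, against 23.5% of all tested genes) and below 0 on all 3 for 19 (26.8%, against 24.9%). Read against those shares, the chromatin genes as a whole stood near the background in each count. Their median log2 ratio was −0.04, and that of all tested genes −0.01. Of the 71 means, 32 were above 0 and 39 below. This split became 40 and 31 with the scanner software's own log ratio, and 8 and 63 when arrays were centred on the median without loess, which moved the median of all genes to −0.39.

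In the reported setting, the highest and the lowest mean among the chromatin genes belonged to an eraser and a writer. Aof1, the eraser, had a mean of 1.82, or 3.54-fold, and was the only one of the 71 to be at least 2-fold apart in 1 direction on all 3 arrays, as 0.358% of all tested genes were. Jarid2, a PRC2 subunit on the writers' side, had a mean of −1.91, or 3.75-fold lower. Among all 7257 tested genes, Aof1 ranked 3 from the top and Jarid2 ranked 6 from the bottom. With the scanner software's log ratio these ranks were 314 and 219, with an offset of 0 they were 17 and 14, and with the mean over probes Jarid2 ranked 54. By the scanner software's log ratio the writer Suv420h1, at 2.10, lay above Aof1, at 1.93, and the eraser Jarid1d, at −2.63, lay below Jarid2, at −2.46. Neither Aof1 nor Jarid2 passed the adjusted threshold in these settings.

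**Figure D1:**
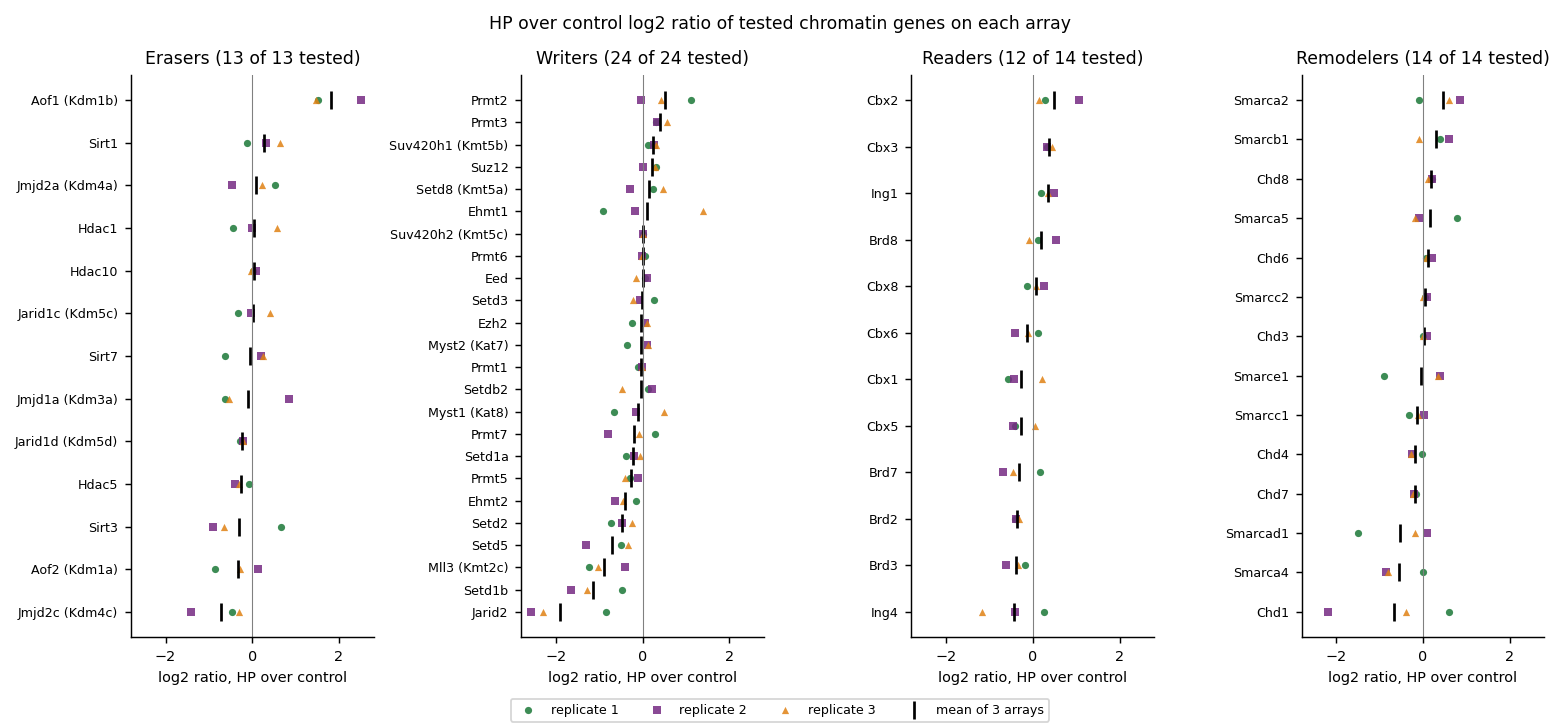
Log2 ratio of HP over control (horizontal axis) for the tested erasers, writers and remodelers and for 12 of the 14 tested readers, 1 point per array and a bar at the mean of 3 arrays; genes are sorted by their mean within each role and old symbols are followed by the current one. Aof1 stands alone at the right among the erasers, with points from 1.46 to 2.50, and Jarid2, Setd1b and Mll3 stand at the left among the writers.

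Among the erasers, Aof1 is the file's name for Kdm1b, also called Lsd2, a flavin-dependent demethylase of methylated lysine 4 on histone H3 that oocytes need in order to set maternal DNA methylation imprints. It was measured by 1 probe of 60 bases at chr13:46566532-46566591 of mm7 (plus strand). No annotation of that build was used, so exons and UTRs are not stated for any probe. The opening 30 bases of the probe, shown because the highest ratio of the 71 genes rests on it alone, read:
Aof1: ctaaaggaactatggtactttgagttatgt
Its normalized signal was 2090.2, 2395 and 2581 in HP pools 1, 2 and 3 and 732, 424 and 936 in the control pools. Every HP pool was above every control pool. The share of all tested genes with no overlap was not counted, for Aof1 or for the genes below. The log2 ratios were 1.51, 2.50 and 1.46, with a mean of 1.82 ± 0.26 (moderated SE, n = 3 arrays) and an adjusted p of 0.178 in limma. With replicates 2 and 3 counted as 1 the mean was 1.75, and leaving out 1 replicate at a time gave 1.49 to 2.01.

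Its paralog Aof2, now Kdm1a or Lsd1, the demethylase of the CoREST complex, was not higher in HP. Aof2 signals were 186, 275 and 263 in HP and 341, 250.0 and 319 in control, so the groups overlapped, with a mean log2 ratio of −0.34 ± 0.23. The jumonji demethylase Jmjd2c (Kdm4c), which acts on lysine 9 of H3, had signals of 203, 143 and 141 in HP and 281, 384 and 174 in control. HP pool 1 lay above control pool 3, and the ratios of −0.47, −1.42 and −0.30 gave a mean of −0.73 ± 0.27 and an adjusted p of 0.272 in limma. Jarid1d (Kdm5d), the lysine 4 demethylase on the Y chromosome, was not well above background in any HP pool. Its ratios of −0.28, −0.21 and −0.20, with a mean of −0.23, rest on those dim HP signals. The size of its difference is therefore not known.

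Other demethylases showed no common direction. Jmjd1a (Kdm3a) had ratios of −0.64, 0.83 and −0.53, and a second probe averaged 0.14 where the brightest averaged −0.11. Jmjd2a (Kdm4a) averaged 0.09 by the brightest probe and −0.03 by the other, and Jarid1c (Kdm5c) 0.01 and −0.22. These are 3 of 6 chromatin genes whose tested probes had means of opposite sign, among 15 with more than 1 tested probe.

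Deacetylases remove acetyl groups and are mostly tied to silent chromatin. Hdac1, the only tested class I enzyme, had signals of 819, 846 and 874 in HP and 1113, 851 and 589 in control. The HP pools were alike, while the control pools ran from above to below them. Its ratios were −0.44, −0.01 and 0.57, with a mean of 0.04 ± 0.23, and the sign of the mean turned without replicate 3 (−0.23) and with replicates 2 and 3 as 1 (−0.08). Hdac10 averaged 0.03. Hdac5 averaged −0.26 with no HP pool well above background, so the size of its difference is not known. The NAD-dependent sirtuins averaged 0.27 (Sirt1), −0.30 (Sirt3) and −0.06 (Sirt7), each with array values on both sides of 0.

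Over the 13 tested erasers, 6 means were above 0 and 7 below, 1 was above 0 on all 3 arrays and 3 were below, and the median was −0.06. The array medians were −0.28, −0.01 and −0.02. After Aof1, the eraser with the highest mean was Sirt1, at 0.27.

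**Figure D2:**
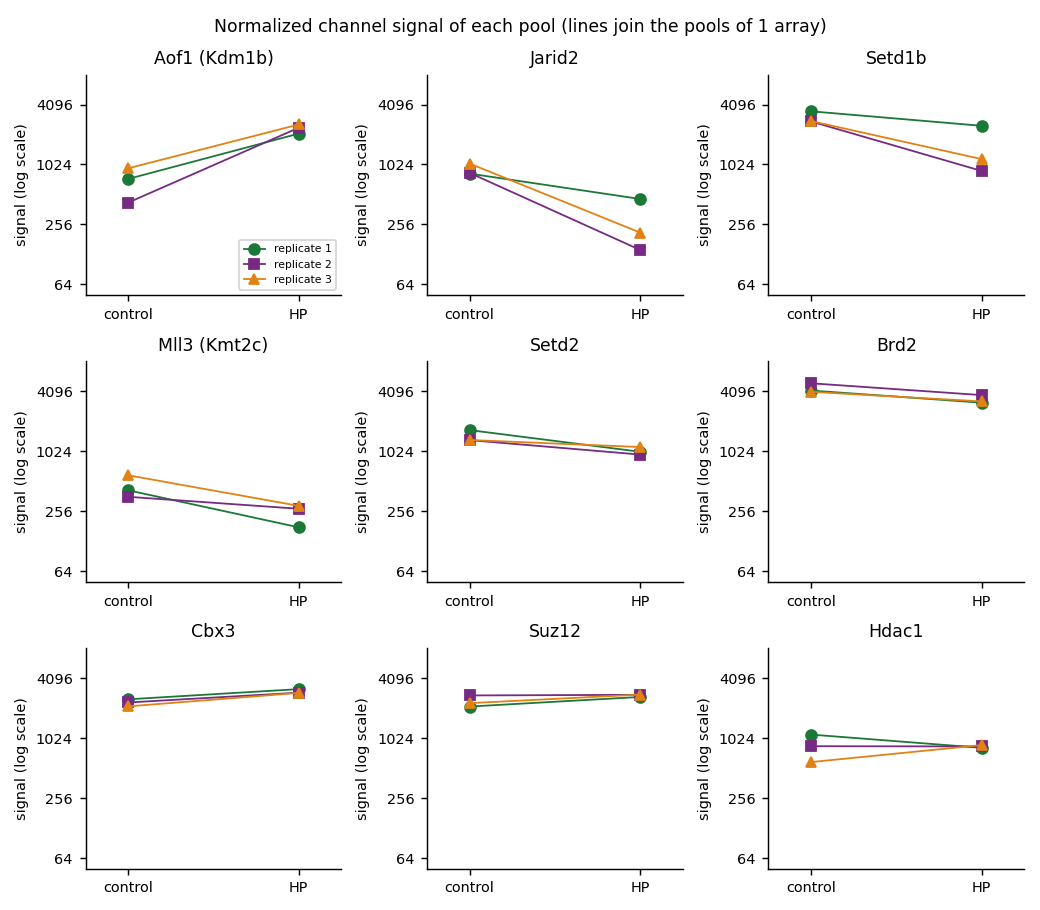
Normalized signal (log scale, arbitrary units) of the control and the HP pool of each array for 9 chromatin genes; each line joins the pools of 1 array. The HP and control pools do not overlap for Aof1, Jarid2, Setd1b, Mll3, Setd2, Brd2 and Cbx3, and they overlap for Suz12 and Hdac1. Most of these genes were named for a small p and 1 sign on all arrays. The share of all tested genes without overlap was not counted.

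The lowest means were found among the writers. Jarid2 belongs by name to the jumonji demethylases but has no known demethylase activity. It brings PRC2, the complex that methylates lysine 27 of H3, to its target genes. Its brightest probe lies at chr13:44370473-44370532 of mm7 and a second at chr13:44369631-44369690, 842 bases upstream on the same plus strand. The opening 30 bases of each are shown because the probes differ in size of effect:
Jarid2, brightest probe: tgtttccctcacacttagagccactaagtc
Jarid2, second probe: ctttgcactagctctaaagaagaatttctt
At the brightest probe the signals were 461, 142 and 212 in HP and 828, 842 and 1045 in control, so every HP pool lay below every control pool. The ratios were −0.85, −2.57 and −2.30, with a mean of −1.91 ± 0.39 and an adjusted p of 0.178 in limma. The second probe read 143, 104 and 125 in HP and 153, 193 and 176 in control. It was again lower in every HP pool, but its ratios of −0.10, −0.89 and −0.49 averaged −0.49. The ratio was farther from 0 in replicates 2 and 3, whose HP pools were alike: counted as 1 replicate they gave a mean of −1.64, and the mean of both probes gave −1.20.

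The catalytic and core subunits of PRC2 had means from −0.03 to 0.21, but Ezh2 and Eed were dim. Ezh2 was well above background in only 2 HP and 2 control pools, and Eed in all pools. For comparison, the probe of Hdac11, not well above background in any pool, read 76.5 to 81.8. Ezh2, the methyltransferase itself, had signals of 105, 89.5 and 85.8 in HP and 125, 86.1 and 80.3 in control, with a mean ratio of −0.03 ± 0.13. Eed, which binds the mark the complex makes, had 115, 119 and 122 against 111, 111 and 136, with a mean of −0.00 ± 0.12. With the scanner software's log ratio the means of Ezh2 and Eed were 0.42 and 0.06, so neither has a stable sign. With an offset of 0 they were −0.07 and −0.02. The offset used here draws the ratios of dim probes toward 0, so these means do not show that Ezh2 or Eed was unchanged. Suz12, the scaffold, had 2658, 2792 and 2808 in HP against 2129, 2752 and 2302 in control. Only control pool 2 reached into the range of the HP pools, and the mean was 0.21 ± 0.12, with −0.84 under median centring. Jarid2 and these subunits are on the same arrays, but the difference between them was not tested.

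Setd1b is the catalytic subunit of a COMPASS complex that methylates lysine 4 of H3 at active promoters. Its tested probes lie at chr5:122397788-122397847 and chr5:122397818-122397877 of mm7 on the plus strand, so they overlap and are not independent. The shared stretch, in capitals because it is common to both probes, reads:
Setd1b, both probes: TTTGGCGTTCCGAACCAATCCCTGTAGATA
At the brighter probe the signals were 2503, 881 and 1158 in HP and 3499, 2767 and 2793 in control. All HP pools were below all control pools, with HP pool 1 nearest to them. The ratios of −0.48, −1.65 and −1.27 gave a mean of −1.13 ± 0.26, or 2.20-fold lower, and an adjusted p of 0.191 in limma. The overlapping probe averaged −1.22. With replicates 2 and 3 as 1 the mean was −0.97.

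Mll3, now Kmt2c, puts a methyl group on lysine 4 at enhancers. It was read by a pair of probes 27499 bases apart on the minus strand, at chr5:24312568-24312627 (the brighter) and chr5:24340067-24340126 of mm7, which share no sequence and whose opening 30 bases read:
Mll3, brighter probe: actgtgagctgtgggtacattcagtgactc
Mll3, second probe: tagctaatagcaatgtcccttgtggccaag
The brighter probe gave 177, 271 and 290.1 in HP and 416, 358 and 589 in control, with no overlap. Its ratios of −1.24, −0.40 and −1.02 averaged −0.89 ± 0.20, with an adjusted p of 0.191 in limma. The second probe gave 239, 304 and 267 in HP and 340.3, 445 and 297 in control, an overlap at control pool 3, with ratios of −0.51, −0.55 and −0.16 and a mean of −0.41. Both probes were thus below 0 on each array.

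Setd2 methylates lysine 36 of H3 in the bodies of transcribed genes. Its signals were 1013, 949.8 and 1130.2 in HP and 1673, 1326 and 1331 in control, again without overlap, and the ratios of −0.72, −0.48 and −0.24 averaged −0.48 ± 0.14 (limma adjusted p of 0.226). Setd5 and Ehmt2 (G9a, a lysine 9 methyltransferase) lay outside the rule for named genes, which takes at most 4 per role and direction, and were picked out after their values were seen. Setd5 had ratios of −0.49, −1.30 and −0.33 and a mean of −0.71 ± 0.23, and Ehmt2 −0.15, −0.63 and −0.44 and a mean of −0.41 ± 0.14. In both, each HP pool was below each control pool.

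The 12 tested Setd, Suv, Ehmt and Mll genes were grouped by name as lysine methyltransferases outside PRC2, whatever the activity of each. Of them, 8 means were below 0 and 4 above, 6 were below 0 on all 3 arrays and 2 above on all 3. All 5 with an unadjusted p under 0.05 in limma were lower in HP, or 41.7% of the 12, where 11.1% of all tested genes were. The median was −0.13, with array medians of −0.27, −0.24 and −0.23. Under the 14 other settings of the processing, which reuse the same arrays, it lay between −0.72 and −0.04. The −0.72 came under median centring, where the median of all genes was −0.39. The split was 6 and 6 with the scanner software's log ratio. No member passed adjustment, and 12 genes picked by name, 1 of several kinds looked at, are described by their counts, without a test. The 4 with means above 0 were Suv420h2 (Kmt5c) at 0.01, Suv420h1 (Kmt5b) at 0.23 ± 0.11 with ratios of 0.12, 0.26 and 0.32, Setd8 (Kmt5a) at 0.14, and Ehmt1, whose ratios of −0.91, −0.17 and 1.39 averaged 0.11 ± 0.49. Ehmt1 and Ehmt2 form a heterodimer, and their array values did not follow the same order.

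Arginine methyltransferases were evenly placed, with 3 of 6 means above 0 and 3 below. Prmt3, a mainly cytosolic enzyme that acts on a ribosomal protein, had ratios of 0.31, 0.33 and 0.56 and a mean of 0.40 ± 0.12, while its second probe averaged 0.04. Prmt5, which makes symmetric dimethylarginine and was picked out after its value was seen, averaged −0.26 ± 0.12. The MYST acetyltransferases Myst1 (Kat8) and Myst2 (Kat7) averaged −0.10 and −0.04. In all, 8 of 24 writers were above 0 and 16 below, 4 were above 0 on all 3 arrays and 9 below, and the median was −0.04. The median lay close to the −0.01 of all genes, while Jarid2, Setd1b and Mll3 had the 3 lowest means of the 71 tested chromatin genes. That order depends on the setting: with the scanner software's log ratio Setd1b and Mll3 averaged −1.23 and −0.40, above Jarid1d at −2.63, Brd3 at −1.82 and Smarcc1 at −1.44.

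**Figure D3:**
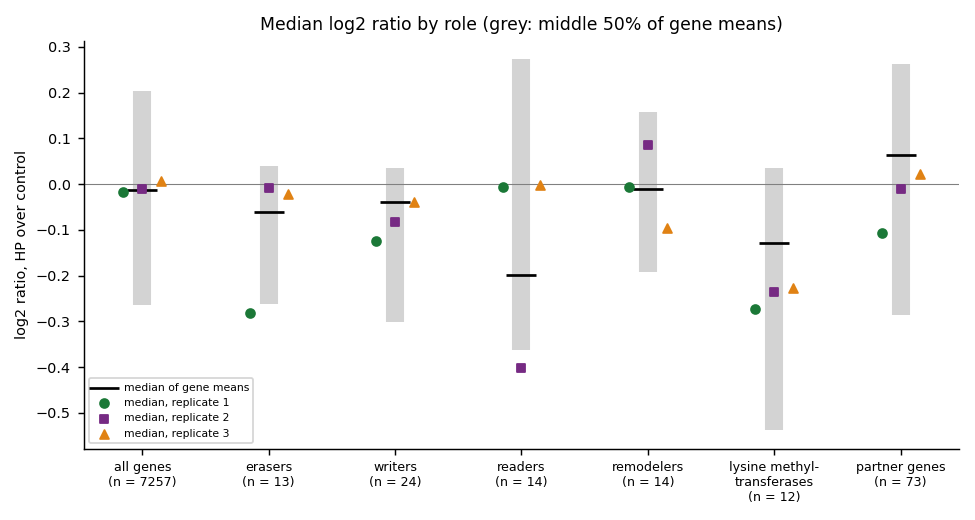
Median log2 ratio of HP over control for all tested genes, for each role, for lysine methyltransferases outside PRC2 (grouped by name) and for partner genes. The number of tested genes stands under each name. Black lines are medians of the gene means, points are the medians on each array and grey bars span the middle 50% of gene means. The medians of the 4 roles lie between −0.20 and −0.01, inside the grey bar of all genes, and the array medians of the readers run from −0.40 to −0.00.

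Among the readers, bromodomain proteins bind acetylated histones and chromodomain proteins of the Cbx family bind methylated ones. Brd2, of the BET family, had signals of 3152, 3757 and 3247 in HP and 4177, 4939 and 4054 in control, so all HP pools were below all control pools. The difference was small but even: ratios of −0.41, −0.39 and −0.32 gave a mean of −0.37 ± 0.10, or 1.30-fold lower, with an adjusted p of 0.217 in limma. Its relative Brd3, with ratios of −0.18, −0.63 and −0.33, was below 0 on each array too, with a mean of −0.38 ± 0.14 and 1 of 3 HP pools well above background. Brd7 averaged −0.33 and Brd8 0.19, each with values on both sides of 0. Thus 4 of 5 bromodomain genes had means below 0, as 51.6% of all tested genes did, with a median of −0.37. Under the other settings this median lay between −0.86 and −0.22. The −0.86 came under median centring, where the median of all genes was −0.39. With both channels well above background on all arrays, 3 of the 5 genes were left.

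Cbx3, or HP1 gamma, which binds methylated lysine 9 of H3, had signals of 3184, 2935 and 2919 in HP and 2517, 2338 and 2137 in control. Every HP pool was above every control pool, and the ratios of 0.34, 0.33 and 0.45 gave a mean of 0.37 ± 0.11, or 1.29-fold, with an adjusted p of 0.221 in limma. Under median centring its mean was −0.68, so its direction differed between these baselines. The other HP1 genes had means below 0: Cbx1 averaged −0.27, and Cbx5 averaged −0.27 with ratios of −0.42, −0.45 and 0.05.

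Of the Polycomb readers, which bind methylated lysine 27 as part of PRC1, Cbx2 had ratios of 0.29, 1.07 and 0.13 and a mean of 0.50 ± 0.23. Its signals were 115, 176 and 164 in HP and 93.8, 83.9 and 149.7 in control, which overlap. Cbx8 averaged 0.07. Cbx6 averaged −0.13, with ratios of 0.12, −0.41 and −0.10 and no HP pool well above background. Of the PHD finger proteins of the Ing family, which bind methylated lysine 4, Ing1 had ratios of 0.18, 0.50 and 0.34 and a mean of 0.34 ± 0.12 (−0.54 under median centring), and Ing4 averaged −0.44. Over the 14 tested readers, 6 means were above 0 and 8 below, with 3 above and 3 below on all 3 arrays. The median was −0.20, with array medians of −0.01, −0.40 and −0.00. Leaving out 1 replicate at a time gave −0.15 to −0.11, and the median became 0.19 when both channels had to be well above background on all arrays.

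The remodelers use ATP to slide or evict nucleosomes, and none of the 14 tested had an unadjusted p under 0.05 in limma. Smarca4 (Brg1), the ATPase of SWI/SNF that is needed for activation of the embryonic genome, had signals of 226, 124 and 149 in HP and 227, 224 and 260.4 in control. HP pool 1 lay among the control pools and HP pools 2 and 3 below them, with ratios of −0.00, −0.85 and −0.81 and a mean of −0.55 ± 0.22. Smarca2 (Brm), the alternative ATPase, averaged 0.46, with ratios of −0.08, 0.86 and 0.60. It was well above background in only 2 HP pools and 1 control pool. The core subunit Smarcb1 averaged 0.30 ± 0.17 (−0.30 under median centring). Smarcc1 averaged −0.14, with ratios of −0.32, 0.03 and −0.11 and no HP pool well above background. Smarca5, the ISWI motor, averaged 0.17 and Smarcad1 −0.54, both set by replicate 1, at 0.79 and −1.50.

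The CHD remodelers carry chromodomains beside their motor. Chd1 varied most of all remodelers, with signals of 184, 91.7 and 110.0 in HP and 122, 422 and 144 in control and ratios of 0.59, −2.20 and −0.39. Control pool 2 was the highest of the pools, and the mean was −0.67 ± 0.58. Chd4, the NuRD motor, averaged −0.19 ± 0.12 and Chd7 −0.19 ± 0.10, and in both every HP pool was slightly below every control pool. Chd8 averaged 0.17 ± 0.10 and Chd6 0.11 ± 0.11, both with ratios above 0 on each array, while a second Chd6 probe averaged −0.36. Under median centring Chd8 and Chd6 were at −0.26 and −0.05. Over all 14 remodelers, 7 means were above 0 and 7 below, and the median was −0.01.

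The Mllt genes are known as fusion partners of Mll in leukaemia, and some encode elongation factors that read acetylated histones. Mllt11, picked out after its value was seen as were the other Mllt genes named, had signals of 159, 267 and 222 in HP and 71.2, 63.6 and 164 in control. HP pool 1 lay just below control pool 3, and the ratios of 1.16, 2.07 and 0.43 averaged 1.22 ± 0.35, with an adjusted p of 0.221 in limma. Mllt3 averaged 0.48 by its brightest probe and 1.11, 0.32 and −0.04 by the others. Mllt4, which is Afdn, an adhesion protein, averaged −0.69 by 1 probe and 0.16 by the other. In all, 5 of the 6 tested had means above 0, where 3516 of all 7257 genes did.

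Other genes of these pathways were taken from a list of subunits and enzymes that the name rule does not catch. Of 118 on the array, 73 were tested, 0 passed in either direction, and 14 had an unadjusted p under 0.05 in limma (19.2%, against 18.5% of all genes). Their means split into 38 above 0 and 35 below, with a median of 0.06. Falz, now Bptf, the largest subunit of the NURF remodeler and a reader of methylated lysine 4, had ratios of −0.87, −0.96 and −0.81 and a mean of −0.88 ± 0.11, with an adjusted p of 0.178 in limma, the lowest of the list. The SWI/SNF subunit Arid1a averaged −0.56 ± 0.14. Among 15 tested partners of the ISWI, INO80, SRCAP and SWI/SNF motors, 11 were below 0 and 4 above, 8 of them below on all 3 arrays (24.9% of all genes were), with a median of −0.23. The difference between partner groups was not tested.

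Of 15 tested Polycomb partners, 12 had means above 0, where 3516 of all 7257 genes did, and the median was 0.15. On all 3 arrays 3 of them were above 0, or 20.0%, below the 23.5% of all genes, and without replicate 2 the count above 0 was 10 of 15. Bmi1, a PRC1 subunit, had ratios of 0.28, 0.55 and 0.49 and a mean of 0.44 ± 0.12. Rbbp7 of the same list went the other way, with ratios of −0.32, −0.27 and −0.40 and a mean of −0.33 ± 0.10. Of 10 partners in the NuRD, Sin3 and CoREST deacetylase complexes, 8 were above 0, with a median of 0.22. Only Sin3a among them had an unadjusted p under 0.05 in limma, and it was lower in HP, at −0.38 ± 0.13. Under median centring the medians of the Polycomb and deacetylase partners were −0.49 and −0.51. Of 13 histone chaperones 5 were above 0 and 8 below. Hira, which deposits histone H3.3, had ratios of 0.74, 1.40 and 0.36 and a mean of 0.84 ± 0.24. The acetyltransferase Crebbp averaged −0.62 ± 0.17, and Ncoa1 of the same list 0.38 ± 0.13.

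Agreement between arrays was moderate. Across the 71 chromatin genes the ratios of replicates 2 and 3 correlated at r = 0.62, and replicate 1 correlated with them at 0.37 and 0.27. The same values over all tested genes were 0.65, 0.23 and 0.22. Genes are not independent replicates, and the points share arrays, dyes and the 2 HP pools that were alike.

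**Figure D4:**
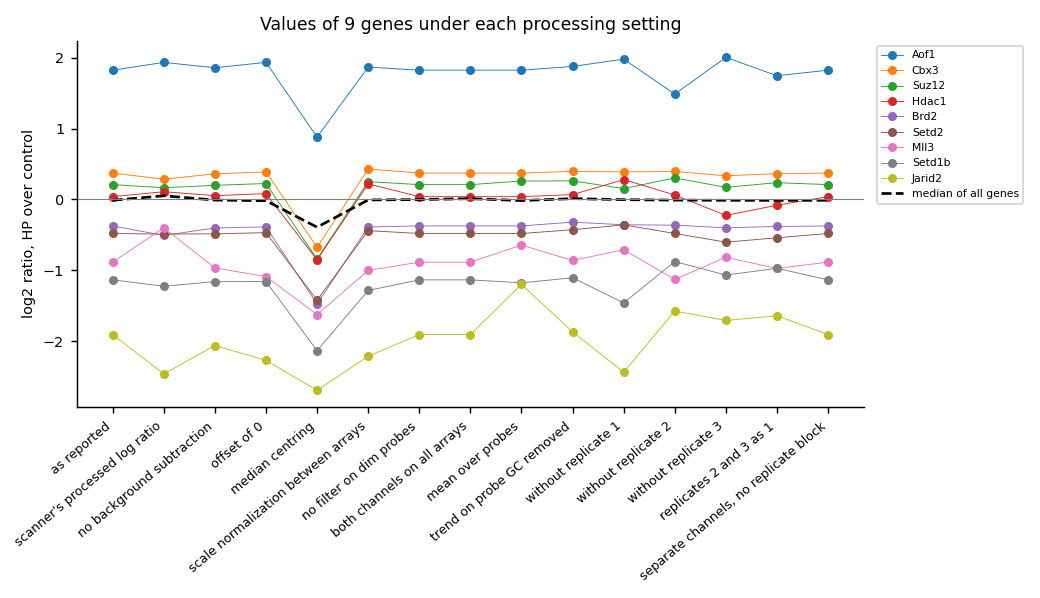
Mean log2 ratio of HP over control of 9 chromatin genes (coloured lines) and the median of all tested genes (dashed) under the reported setting and the 14 others. Aof1 stays above 0 throughout, between 0.88 and 2.01, Jarid2 stays below 0, between −2.69 and −1.20, and median centring lowers each gene together with the dashed line. Settings that changed only the filter or the fit left the means of these genes as reported.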

How the data were processed

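The deposited scanner tables hold mean spot signals and median local backgrounds as intensity values, per the file headers, quantified with Agilent Feature Extraction 9.5.1.1. A deposited log10 ratio (Cy5 processed signal divided by Cy3 processed signal, per the file headers) is repeated in the authors' series table. Per the labels, 240 pg of total RNA was amplified in successive rounds. Here, signals were corrected by normexp (offset 50) and loess within each array in limma 3.58.1 (R 4.3.3, statmod 1.5.0). Outlier spots (172 to 325 per array) were left out and spots of a probe were averaged. An intercept was fitted to the log2 ratios of 7257 genes with eBayes (2 residual and 2.04 prior degrees of freedom), and p-values were adjusted over all genes. The gene fit was tested on simulated log ratios, and the steps before it were not. Printed signals are the channels after quantile normalization of their average levels between arrays (Aquantile), in arbitrary units. Symbols were matched to RefSeq by accession (101 genes), symbol (9) or synonym (8). Probe sequences and mm7 positions come from the array tables. The members, lists, tests and alternatives were chosen with earlier results of these data known.

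The rule for named genes took, in each role and direction, up to 4 genes with the smallest p among those with 1 sign on all 3 arrays and the brighter channel well above background on all 3, and a fixed set (Aof1, Aof2, PRC2, class I deacetylases and the SWI/SNF core). Some members are counted but not reported by name here. Other genes named were chosen after their values were seen.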

Additional observations from a re-analysis of the deposited data

How the results depend on the processing

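Dye and treatment ran the same way on every array, and 3 arrays with 2 residual degrees of freedom limit every test. Of the 118 chromatin genes 47 could not be tested, and the offset of 50 draws the ratios of dim probes toward 0. Under 13 of the 14 other settings no gene passed adjustment in limma, with lowest adjusted p-values from 0.058 to 0.493, beside 0 genes as reported. Median centring without loess called 1029 genes (14.2%), 7 of them chromatin genes, all lower (Aof2, Brd2, Ehmt2, Jarid2, Mll3, Setd1b and Setd2). The count of genes with an unadjusted p under 0.05 in limma was 1339 as reported. It was 1790, 712 and 748 without replicates 1, 2 and 3, and 862 with replicates 2 and 3 counted as 1. Under median centring it was 2592, and with no filter on dim probes 2007 of 27962.

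For the named genes, 334 of 358 values kept their direction and their side of the threshold, 6 passed it under median centring, and 18 changed sign. Part of this agreement was fixed in advance. Dropping the filter on dim probes, requiring both channels on all arrays, and treating the channels as separate samples left each remaining mean unchanged. Genes with 1 sign on all 3 arrays, most of those named, could not change sign when replicates were left out or merged. Median centring gave medians of −0.68 for erasers, −0.55 for writers, −0.60 for readers and −0.31 for remodelers, and means of −0.84 for Suz12, −0.68 for Cbx3, −0.54 for Ing1, −0.26 for Chd8, −0.049 for Chd6, −0.85 for Hdac1 and −0.30 for Smarcb1. With the log ratio of the scanner software the medians were 0.030 for writers and 0.083 for remodelers, and Ezh2 and Eed stood at 0.42 and 0.059. The median of writers was −0.085 with an offset of 0, −0.10 with both channels well above background on all arrays, where the median of readers was 0.19, and −0.082 with replicates 2 and 3 as 1, where Eed and Hdac1 stood at 0.012 and −0.081. Leaving out 1 replicate at a time gave −0.11 to −0.021 for the median of writers, −0.098 to 0.075 for Ezh2, −0.051 to 0.076 for Eed and −0.23 to 0.28 for Hdac1. Ezh2 was at 0.0072 after scale normalization between arrays and at 0.019 after removal of a trend on probe GC share, where Eed was at 0.043. The mean over probes gave −0.12 for Chd6. Treating the channels as separate samples with no replicate block changed no call, and gave adjusted p-values of 0.077 for Aof1 and 0.111 for Jarid2. The causes of these shifts were not tested.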
